A study of Mus musculus with 6 samples.

Results

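Interferon-stimulated genes are the genes that cells switch on after an interferon binds its receptor. A set of 47 of them, given by symbol and including the chemokine genes Cxcl9 and Cxcl10, was followed in mouse liver. All 47 were found by Ensembl identifier among the 55401 genes of the deposited count table, and all 47 were among the 17394 genes that passed the filter on low counts. They were divided into 38 targets of type I interferon, 8 targets of interferon-gamma (Cxcl9, Gbp2, Gbp3, Gbp6, Gbp7, Irf1, Igtp and Irgm1) and Cxcl10, which answers to both and was kept apart.

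The livers came from C57BL/6 mice, an inbred laboratory strain. The HFCF group (3 libraries) received a diet rich in fat, cholesterol and fructose, which is used to produce fatty liver, and the OP group (3 libraries) was treated with OP, okra polysaccharide in the title of the series. The labels of the OP libraries do not name their diet, and no age, sex, dose or duration is given for either group. Nor do they say that the libraries of a group came from separate animals, so the p-values measure only the spread between these libraries, which may be technical. No library from mice on a standard diet was analysed here.

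Type I interferons are made by many cells on sensing foreign or misplaced nucleic acid. Their receptor acts through JAK kinases on a complex of transcription factors that includes STAT2 and IRF9 and binds the interferon-stimulated response element (ISRE) in target promoters. Interferon-gamma comes mainly from T cells and natural killer (NK) cells and acts through the gamma-activated site (GAS). Many targets answer to both, so the division into classes is one of emphasis. In the liver, hepatocytes, Kupffer cells (the resident macrophages) and endothelial cells can all respond.

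Of the 47 genes, Isg15, Ifit1, Cxcl9 and Cxcl10 rose in OP, Mx1 and Parp12 fell, and 41 did not pass edgeR's quasi-likelihood test at a Benjamini-Hochberg adjusted p under 0.05 over all tested genes. The 6 that passed are 12.8% of the set, against 6.73% of all tested genes. Those that rose are 8.51% of the set against 3.26% of all tested genes, and those that fell are 4.26% against 3.47%. The log2 fold change (OP minus HFCF) was above 0 for 35 of the 47 genes (74.5%), against 51.4% of all tested genes. Its median over the set was 0.21, against 0.02 over all tested genes. All 3 OP libraries lay above all 3 HFCF libraries for 12 of the 47 genes (25.5%, against 15.8% of all tested genes), and below them for 4 (8.51%, against 15.4%). In bulk tissue, more cells of a type and more RNA per cell cannot be told apart.

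**Figure D1:**
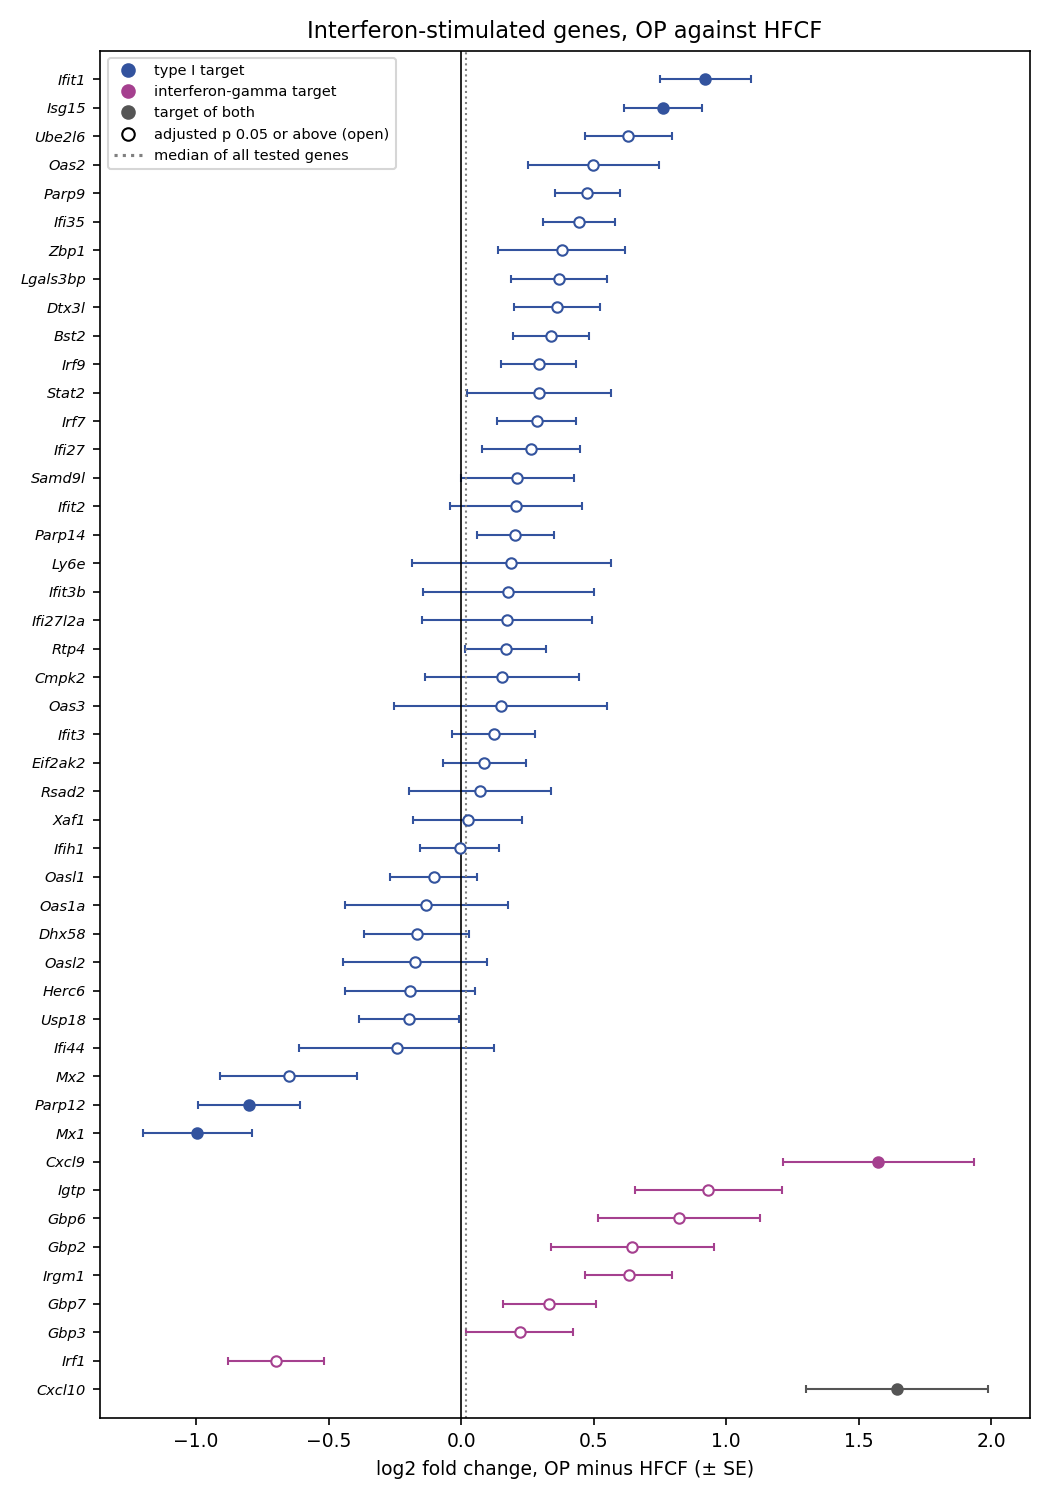
Log2 fold change (OP minus HFCF, horizontal axis) of each of the 47 genes, with bars of 1 standard error from the fit over all genes; filled points passed the adjusted p threshold of 0.05, open points did not, and the dotted line is the median of all tested genes. Ifit1 and Isg15 lie at the upper end of the type I targets and Mx1 and Parp12 at the lower end, 7 of the 8 interferon-gamma targets lie above 0 with Irf1 below, and Cxcl10 has the highest value of the 47 at 1.64.

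Each of these calls rests on few libraries. When HFCF replicate 1 or 2 or OP replicate 1 was left out, the test called 0 of the 47. Calls over all tested genes were also few in those fits, at 0.609%, 0.481% and 1.13%, against 6.73% with all 6 libraries. At an unadjusted p under 0.05 with all 6 libraries, 11 genes were higher and 4 lower (23.4% and 8.51% of the set, against 13% and 12.2% of all tested genes). The 6 genes that passed kept their direction in every fit that left out 1 library, and their log2 fold changes in those fits lay between 0.73 and 0.80 for Isg15, 0.86 and 0.99 for Ifit1, 1.27 and 1.91 for Cxcl9, 1.42 and 1.91 for Cxcl10, -1.12 and -0.86 for Mx1, and -0.95 and -0.66 for Parp12. The share of counts in mitochondrially encoded mRNAs moved with the groups, at 22.0%, 18.8% and 14.1% in HFCF replicates 1, 2 and 3 and 7.48%, 6.08% and 14.4% in OP replicates 1, 2 and 3. With that share as a covariate none of the 47 genes passed edgeR's test, and of all tested genes 1.19% passed. The log2 fold changes in that fit were 0.79 for Isg15, 0.99 for Ifit1, 1.72 for Cxcl9, 1.73 for Cxcl10, -0.81 for Mx1 and -1.02 for Parp12, each in the direction it had without the covariate. Some genes that had not passed moved further. Mx2 went from -0.65 to -0.077, Irf1 from -0.70 to -0.21, Igtp from 0.93 to 0.34 and Ube2l6 from 0.63 to 0.19, each towards 0. The median over the 47 genes was 0.43 with the covariate and 0.21 without it. With it 38 of the 47 lay above 0, and without it 35.

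**Figure D2:**
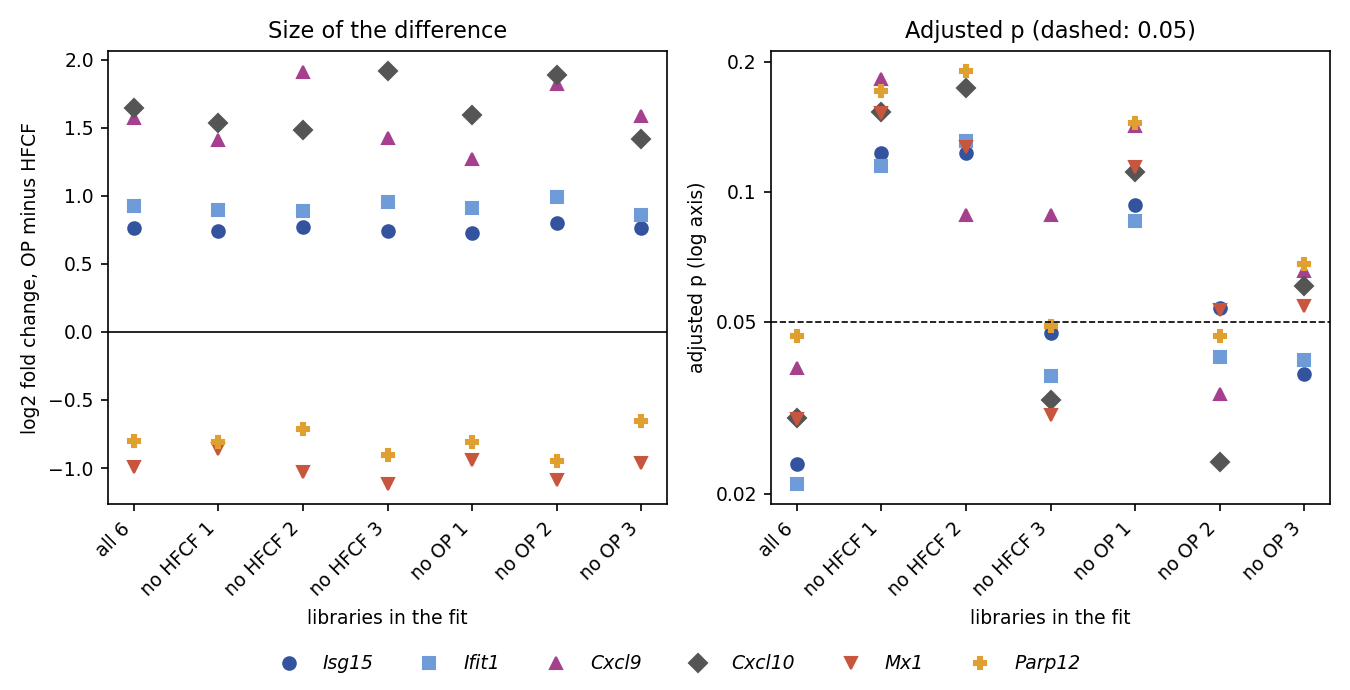
Log2 fold change (OP minus HFCF, left) and adjusted p of edgeR's quasi-likelihood test (right, log axis, dashed line at 0.05) for the 6 genes that passed, with all 6 libraries and with each library left out in turn. The fold changes stay on their side of 0 throughout, and all 6 adjusted p values lie above the line when HFCF replicate 1 or 2 or OP replicate 1 is left out.

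Cxcl9 and Cxcl10 encode chemokines that draw activated T cells and NK cells through the receptor CXCR3, and they showed the 2 highest fold changes of the set. The chemokine gene Cxcl11, listed among other interferon-gamma targets outside the set, did not rise with them. Its log2 fold change was -0.10 ± 0.22 (SE; edgeR adjusted p = 0.818), and its groups overlapped. Cxcl9 stood at 2.43, 4.68 and 2.53 CPM (counts relative to the TMM-scaled library total) in HFCF replicates 1, 2 and 3 and at 13.2, 6.02 and 9.47 CPM in OP replicates 1, 2 and 3. The lowest OP library was therefore close to the highest HFCF library, but the groups did not overlap. The means were 3.21 ± 1.27 CPM (SD, n = 3) in HFCF and 9.56 ± 3.58 CPM (SD, n = 3) in OP, a log2 fold change of 1.57 ± 0.36 (SE; edgeR adjusted p = 0.0392). That call was lost on leaving out any library except OP replicate 2, with an edgeR adjusted p of up to 0.182.

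Cxcl10 stood at 1.51, 1.48 and 2.41 CPM in HFCF replicates 1, 2 and 3 and at 6.03, 3.59 and 7.33 CPM in OP replicates 1, 2 and 3. Every OP library was above every HFCF library, and OP replicate 2 was the lowest of OP for this gene as for Cxcl9. The log2 fold change was 1.64 ± 0.34 (SE; edgeR adjusted p = 0.03), from 1.80 ± 0.53 CPM in HFCF to 5.65 ± 1.9 CPM in OP (SD, n = 3 each). Without HFCF replicate 1 or 2 or OP replicate 1 or 3 the call was lost, with an edgeR adjusted p of up to 0.174. Exons of Cxcl10 share 133 bases with Art3 on the opposite strand in GENCODE M21, and whether the counting used strand is not given in the sources.

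**Figure D3:**
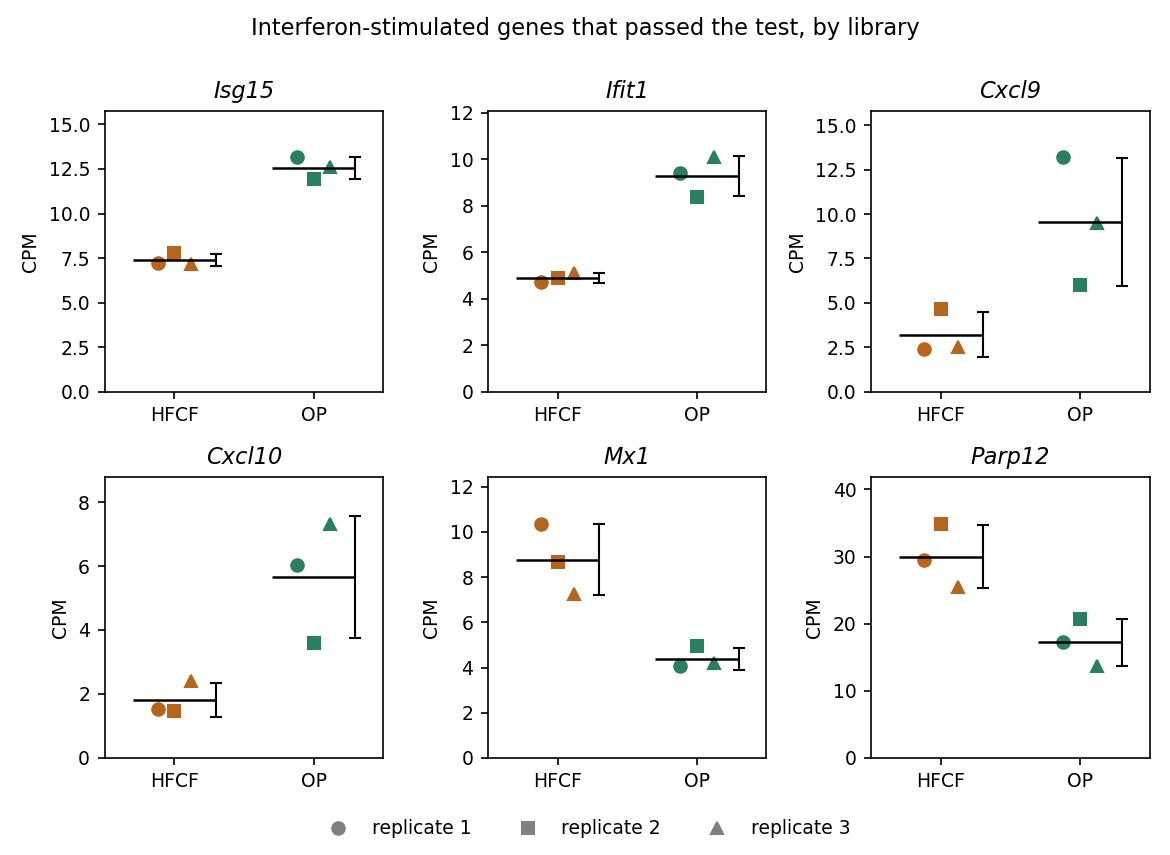
CPM in each library of the 6 genes that passed the test, 1 panel per gene with its own axis from 0; points are libraries by replicate, the line is the group mean and the bar is 1 SD either way (n = 3). For Isg15, Ifit1, Cxcl9 and Cxcl10 every OP library lies above every HFCF library, and for Mx1 and Parp12 every OP library lies below; Cxcl9 in OP spans 6.02 to 13.2 CPM, Isg15 only 11.9 to 13.1 CPM.

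Isg15 encodes a small ubiquitin-like protein that is attached to other proteins after interferon. It stood at 7.22, 7.80 and 7.20 CPM in HFCF replicates 1, 2 and 3 and at 13.1, 11.9 and 12.6 CPM in OP replicates 1, 2 and 3. The spread within each group was small beside the difference between them. The difference was a log2 fold change of 0.76 ± 0.15 (SE; edgeR adjusted p = 0.0235), from 7.40 ± 0.34 to 12.6 ± 0.62 CPM (SD, n = 3 each). The call held without HFCF replicate 3 or OP replicate 3 and was lost without any of the other 4 libraries (edgeR adjusted p of up to 0.123).

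The remaining genes of the ISG15 pathway did not pass. Ube2l6, the enzyme that hands ISG15 to its ligases, stood at 30.4, 32.4 and 37.7 CPM in HFCF and 55.0, 58.4 and 42.4 CPM in OP (replicates 1, 2 and 3), without overlap. Its log2 fold change was 0.63 ± 0.17 (SE) and its edgeR adjusted p 0.0585, just outside the threshold. Herc6, the mouse ISG15 ligase, and Usp18, which removes ISG15 and also damps the type I receptor, had log2 fold changes of -0.19 ± 0.24 and -0.20 ± 0.19 (SE), and their groups overlapped.

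Ifit1, whose product binds viral RNA with an incomplete cap, stood at 4.71, 4.89 and 5.10 CPM in HFCF replicates 1, 2 and 3 and at 9.40, 8.38 and 10.1 CPM in OP replicates 1, 2 and 3. Every OP library stood far above every HFCF library relative to the spread within the groups. In log2 fold change this is 0.92 ± 0.17 (SE; edgeR adjusted p = 0.0211), from 4.90 ± 0.20 to 9.28 ± 0.85 CPM (SD, n = 3 each). The call was lost when HFCF replicate 1 or 2 or OP replicate 1 was left out (edgeR adjusted p of up to 0.131).

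The other 3 IFIT genes did not pass, and their groups overlapped. Ifit2 had a log2 fold change of 0.21 ± 0.25, Ifit3 of 0.12 ± 0.16 and Ifit3b of 0.18 ± 0.32 (SE). Ifit3 stood at 14.7, 14.6 and 11.4 CPM in HFCF and 14.5, 13.8 and 16.0 CPM in OP (replicates 1, 2 and 3). Ifit3 and Ifit3b are near-copies: 31.7% of the 100-base stretches of Ifit3 also occur in another gene, so the authors' counting could divide reads between them. Their summed counts had a log2 fold change of 0.13. The difference between Ifit1 and the other IFIT genes was not tested.

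The promoters of the 4 genes that rose, and of Parp12, which fell, are shown so that those with and without an ISRE core can be compared. The sequences are from RefSeq on build GRCm38.p6, another build than that of the count table, and run over the 250 bases before the annotated start of the gene, 5′ to 3′ on its own strand. They lie at chr4:156200819-156201068, minus strand (Isg15), at chr19:34640639-34640888, plus strand (Ifit1), at chr5:92328080-92328329, minus strand (Cxcl9), at chr5:92348890-92349139, minus strand (Cxcl10) and at chr6:39118350-39118599, minus strand (Parp12). Capitals mark the ISRE core, which is GAAA, any 2 bases and GAAA again, or TTTC, any 2 bases and TTTC where it lies on the other strand.
Isg15: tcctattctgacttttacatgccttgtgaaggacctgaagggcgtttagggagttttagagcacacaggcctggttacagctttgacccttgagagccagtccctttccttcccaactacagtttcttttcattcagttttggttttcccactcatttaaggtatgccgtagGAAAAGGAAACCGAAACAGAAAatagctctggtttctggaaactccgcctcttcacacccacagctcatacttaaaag
Ifit1: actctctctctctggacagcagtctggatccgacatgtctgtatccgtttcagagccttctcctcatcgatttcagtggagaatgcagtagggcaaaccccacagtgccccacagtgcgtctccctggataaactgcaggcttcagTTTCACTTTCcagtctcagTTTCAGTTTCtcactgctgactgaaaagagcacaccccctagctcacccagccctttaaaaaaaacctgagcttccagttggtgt
Cxcl10: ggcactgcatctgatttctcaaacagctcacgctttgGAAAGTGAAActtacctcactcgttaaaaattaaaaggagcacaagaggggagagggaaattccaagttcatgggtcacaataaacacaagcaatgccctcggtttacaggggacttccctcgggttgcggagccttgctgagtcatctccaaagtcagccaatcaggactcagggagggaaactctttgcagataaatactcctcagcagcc
Cxcl9: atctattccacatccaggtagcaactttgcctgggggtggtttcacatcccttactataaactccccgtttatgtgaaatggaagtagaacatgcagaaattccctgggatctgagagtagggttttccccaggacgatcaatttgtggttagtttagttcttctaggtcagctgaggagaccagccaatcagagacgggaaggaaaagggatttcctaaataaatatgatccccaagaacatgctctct
Parp12: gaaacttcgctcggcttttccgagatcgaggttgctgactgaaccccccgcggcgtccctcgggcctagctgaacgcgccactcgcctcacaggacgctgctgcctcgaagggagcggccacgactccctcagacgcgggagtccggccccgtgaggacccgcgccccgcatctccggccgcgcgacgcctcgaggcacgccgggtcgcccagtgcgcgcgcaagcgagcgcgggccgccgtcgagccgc

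Isg15 held 3 overlapping matches to the ISRE core, the first beginning 78 bases before the start, and Ifit1 held 2, beginning 104 and 85 bases before it. Cxcl10 held 1, which began 213 bases before the start. In Cxcl9 and Parp12 neither this motif nor the GAS letters TTCNNNGAA occurred on either strand, which says only that these letters are not in this window. The RefSeq table gave a promoter, searched from 250 bases before to 50 bases after the start on both strands, for 34 of the 47 genes, and Mx1 was not among them. The ISRE core occurred in 17 of the 34 (50%), against 3.93% of the tested genes with a promoter. GAS letters occurred in 8 of the 34 (23.5%), against 8.54% of tested genes. Matches to the 2 motifs overlapped each other in Bst2 alone of the 34.

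Genes with and without a match were found both among those that passed and among those that did not. Of the 29 genes with a promoter that did not pass, 14 (48.3%) held the ISRE core, and 3 of the 4 genes that rose held it. Ifit3 and Ifit3b, which did not pass, hold the same 2 cores as Ifit1, shown here as 30-base windows with the core in capitals, in the order in which they lie on the gene's strand.
Ifit1: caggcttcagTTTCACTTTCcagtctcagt
Ifit1: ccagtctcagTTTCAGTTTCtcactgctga
Ifit3: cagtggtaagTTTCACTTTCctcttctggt
Ifit3: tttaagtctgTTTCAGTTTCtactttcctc
Ifit3b: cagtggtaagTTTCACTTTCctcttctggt
Ifit3b: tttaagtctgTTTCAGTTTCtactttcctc

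The 2 Mx genes, which encode dynamin-like GTPases that block viruses, lay lower in OP. Laboratory strains such as C57BL/6 carry a defective Mx1 allele, so its transcript does not stand for working protein. Mx1 stood at 10.4, 8.69 and 7.25 CPM in HFCF replicates 1, 2 and 3 and at 4.05, 4.95 and 4.18 CPM in OP replicates 1, 2 and 3. Every OP library was below every HFCF library. This is a log2 fold change of -0.995 ± 0.21 (SE; edgeR adjusted p = 0.0298), from 8.77 ± 1.56 to 4.40 ± 0.49 CPM (SD, n = 3 each). Leaving out any library except HFCF replicate 3 lost the call (edgeR adjusted p of up to 0.152). Mx2 stood at 16.8, 16.2 and 14.9 CPM in HFCF and 10.2, 6.43 and 13.9 CPM in OP (replicates 1, 2 and 3), with a log2 fold change of -0.65 ± 0.26 (SE; edgeR adjusted p = 0.161). Its groups did not overlap, but OP replicate 3 lay close to the lowest HFCF library.

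Parp12, a member of the family that adds ADP-ribose to proteins, stood at 29.5, 34.9 and 25.5 CPM in HFCF replicates 1, 2 and 3 and at 17.3, 20.6 and 13.6 CPM in OP replicates 1, 2 and 3. No OP library reached the lowest HFCF library. The log2 fold change was -0.80 ± 0.19 (SE; edgeR adjusted p = 0.0463), from 30.0 ± 4.72 to 17.2 ± 3.51 CPM (SD, n = 3 each). The call was lost without HFCF replicate 1 or 2 or OP replicate 1 or 3 (edgeR adjusted p of up to 0.19).

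The relatives of Parp12 in the set lay the other way without passing. Outside the set, Parp11 and Parp10 lay the same way as Parp12, also without passing. Their log2 fold changes were -0.93 ± 0.23 (SE; edgeR adjusted p = 0.0509) and -0.39 ± 0.20 (SE; edgeR adjusted p = 0.275). Parp9 stood at 33.8, 35.1 and 32.3 CPM in HFCF and 48.3, 45.3 and 47.1 CPM in OP (replicates 1, 2 and 3), with no overlap, a log2 fold change of 0.48 ± 0.12 (SE) and an edgeR adjusted p of 0.0552. Dtx3l, the ubiquitin ligase that pairs with PARP9, had 0.36 ± 0.16 and Parp14 had 0.20 ± 0.15 (log2 fold change, SE), and both had overlapping groups. Exons of Dtx3l and Parp9 share 458 bases on opposite strands in GENCODE M21, which are 8.0% and 9.4% of their exon bases. Reads within those bases cannot be told apart if the counting ignored strand.

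Among the interferon-gamma targets, Cxcl9 rose and the other 7 did not pass. Values above 0 were found for 7 of the 8, and the median log2 fold change was 0.64, against 0.17 for the 38 type I targets and 0.02 for all tested genes. The 38 type I targets held 2 genes that rose and 2 that fell (5.26% each, against 3.26% and 3.47% of all tested genes), with 27 above 0 (71.1%, against 51.4%). The difference between the classes was not tested. With 1 library left out, the median lay between 0.44 and 0.77 for the interferon-gamma targets and between 0.08 and 0.23 for the type I targets. In the fit with the mitochondrial share as covariate they were 0.46 and 0.35, so the distance between the classes narrowed.

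The immunity-related GTPases Igtp and Irgm1, which take part in defence against intracellular pathogens, were higher in every OP library without passing. Igtp stood at 14.2, 20.2 and 24.0 CPM in HFCF and 52.6, 29.6 and 29.4 CPM in OP (replicates 1, 2 and 3). OP replicate 1 stood far above the other OP libraries. Igtp had a log2 fold change of 0.93 ± 0.28 (SE; edgeR adjusted p = 0.0795). Irgm1 stood at 22.9, 25.2 and 32.3 CPM in HFCF and 44.9, 37.6 and 42.2 CPM in OP, and its log2 fold change was 0.63 ± 0.16 (SE; edgeR adjusted p = 0.0572). The promoters of both hold the ISRE core close to the start, shown with 1 core in capitals, beginning 34 (Igtp) and 24 (Irgm1) bases before it. A further core in Irgm1 begins 30 bases before the start and overlaps the one in capitals, and Igtp holds the GAS letters 45 bases before its start.
Igtp: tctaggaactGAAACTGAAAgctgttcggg
Irgm1: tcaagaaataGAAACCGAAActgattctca

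The guanylate-binding proteins are large GTPases that coat intracellular pathogens. In the set, 4 of 4 of their genes lay above 0, and none passed. Outside the set the Gbp genes lay on both sides of 0, also without passing. Gbp2b had -0.16 ± 0.30, Gbp4 -0.13 ± 0.32, Gbp8 -0.07 ± 0.38 and Gbp9 -0.83 ± 0.21 (log2 fold change, SE). Gbp5 had 0.70 ± 0.34, Gbp10 1.37 ± 0.41 and Gbp11 1.61 ± 0.74. The value of Gbp11 rests on OP replicate 3, and its groups overlapped. Gbp11 stood at 12.9, 15.8 and 16.7 CPM in HFCF and 14.6, 13.4 and 111 CPM in OP (replicates 1, 2 and 3). Gbp6 stood at 7.80, 6.65 and 6.55 CPM in HFCF and 18.7, 7.64 and 10.8 CPM in OP (replicates 1, 2 and 3), so that OP replicate 2 lay within the HFCF values. Its log2 fold change was 0.82 ± 0.31 (SE; edgeR adjusted p = 0.139). Of its 100-base stretches, 64.5% also occur in another gene, and its exons share 1726 bases on the same strand with Gm43302. Gm43302 held 0, 267 and 94 counts in HFCF and 1073, 836 and 972 counts in OP. Summed with it, an alternative chosen after seeing the data, Gbp6 passed with a log2 fold change of 1.65 ± 0.26 (SE; edgeR adjusted p = 0.0124), so the level of Gbp6 itself is uncertain.

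Gbp2 stood at 2.74, 2.52 and 2.67 CPM in HFCF and 5.02, 4.91 and 2.48 CPM in OP (replicates 1, 2 and 3). OP replicate 3 was below every HFCF library, and the log2 fold change was 0.65 ± 0.31 (SE; edgeR adjusted p = 0.234), which became -0.025 with the mitochondrial share as covariate. Gbp3 ran from 7.26 to 10.4 CPM in HFCF and from 8.43 to 11.4 CPM in OP (log2 fold change 0.22 ± 0.20, SE). For Gbp7 the ranges were 8.60 to 11.0 and 10.2 to 13.0 CPM (0.33 ± 0.18, SE). Both pairs of ranges overlapped.

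Irf1, the transcription factor that carries much of the interferon-gamma response, was the 1 interferon-gamma target below 0. It stood at 61.0, 61.8 and 45.5 CPM in HFCF and 31.0, 31.3 and 41.4 CPM in OP (replicates 1, 2 and 3). The groups did not overlap, but OP replicate 3 lay close to HFCF replicate 3. The log2 fold change was -0.70 ± 0.18 (SE) and the edgeR adjusted p 0.0575. Exons of Irf1 share 135 bases with Gm17334 on the opposite strand. Gm17334 held 309, 390 and 398 counts in HFCF and 98, 101 and 119 counts in OP, and fell by 1.89 on the log2 scale (edgeR adjusted p = 0.00885). With both genes summed, again chosen after seeing the data, the log2 fold change was -0.79 ± 0.18 (SE; edgeR adjusted p = 0.0388).

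**Figure D4:**
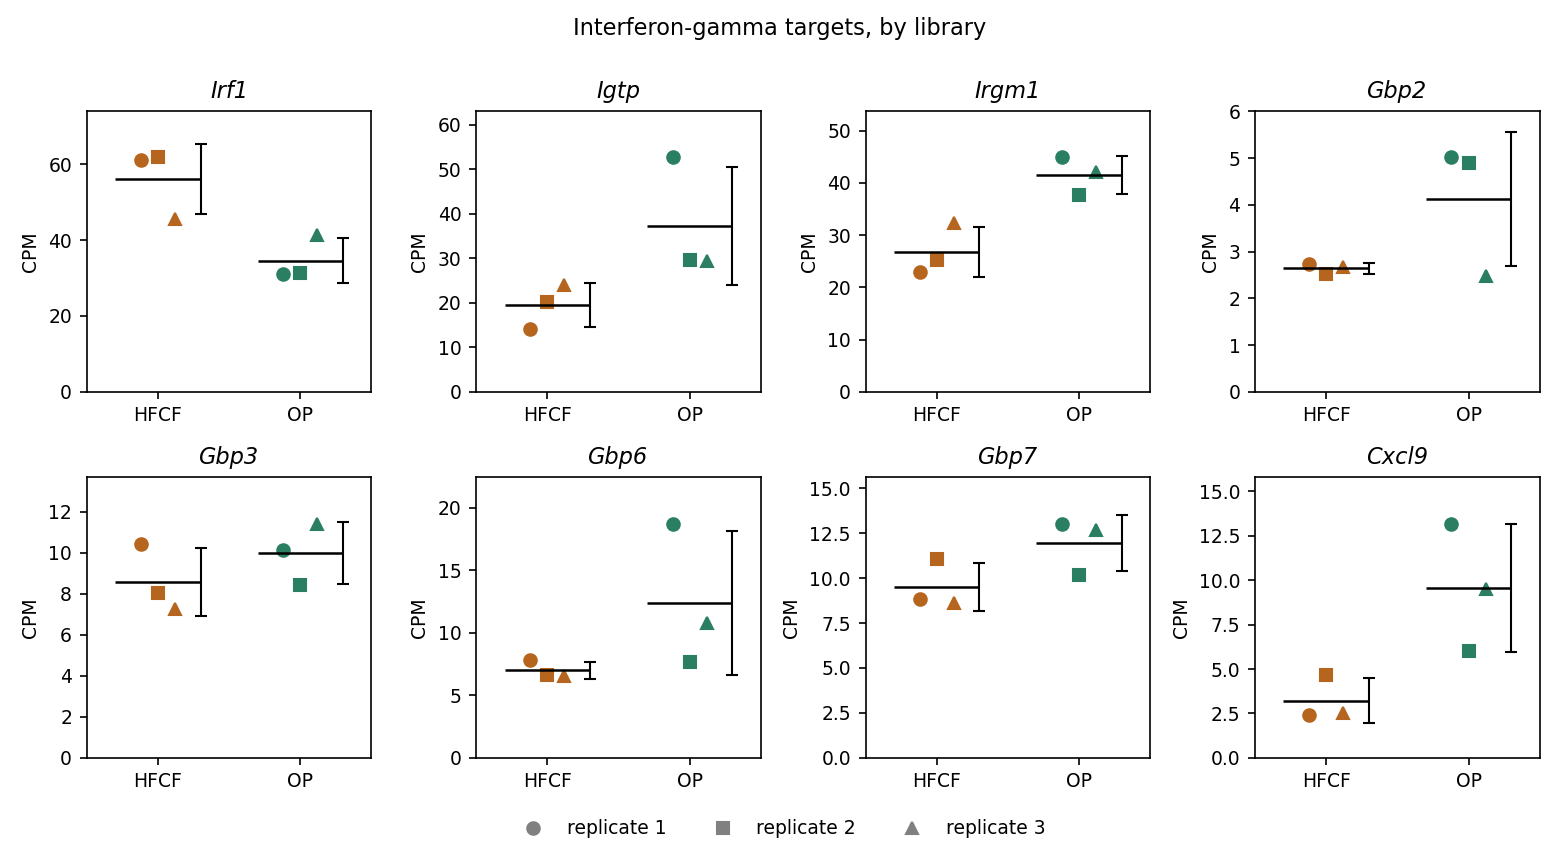
CPM in each library of the 8 interferon-gamma targets, 1 panel per gene with its own axis from 0; points are libraries by replicate, the line is the group mean and the bar is 1 SD either way (n = 3). OP replicate 1 is the highest library for 6 of the 8 genes (75%, against 15.5% of all tested genes). Cxcl9, Igtp and Irgm1 show no overlap with OP higher, and Irf1 shows none with OP lower.

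The transcription factors of the type I response did not pass. Irf9, the DNA-binding partner of STAT2, stood at 41.2, 37.2 and 34.6 CPM in HFCF and 45.7, 41.6 and 51.2 CPM in OP (replicates 1, 2 and 3), with a log2 fold change of 0.29 ± 0.14 (SE; edgeR adjusted p = 0.237). Irf7, which amplifies type I interferon production, had 0.29 ± 0.15 (SE). In both genes the OP libraries lay above the HFCF libraries by a margin smaller than the range within either group. Stat2 ran from 83.2 to 121 CPM in HFCF and from 83.8 to 180 CPM in OP (log2 fold change 0.29 ± 0.27, SE).

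The OAS genes, whose products answer double-stranded RNA by activating RNase L or, for the OAS-like proteins, by other routes, showed no common direction. Of the 5, 0 passed, 2 were above 0 and the median log2 fold change was -0.10. Oas2 had the smallest p of them, at 8.32, 12.8 and 7.69 CPM in HFCF and 13.8, 10.5 and 16.5 CPM in OP (replicates 1, 2 and 3), with a log2 fold change of 0.50 ± 0.25 (SE; edgeR adjusted p = 0.252). Oas3 had 0.15 ± 0.40, Oasl1 -0.10 ± 0.17, Oas1a -0.13 ± 0.31 and Oasl2 -0.18 ± 0.27 (log2 fold change, SE). Of Oas1a, 40.9% of the 100-base stretches also occur in another gene, and its counts summed with Oas1g gave -0.10.

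The nucleic acid sensors lay close to 0, with a median log2 fold change of 0.04 over 4 genes. Zbp1, a sensor of Z-form nucleic acid, stood at 8.56, 11.6 and 7.66 CPM in HFCF and 15.3, 11.9 and 9.01 CPM in OP (replicates 1, 2 and 3), and its log2 fold change was 0.38 ± 0.24 (SE; edgeR adjusted p = 0.369). Ifih1, the RNA sensor MDA5, had -0.01 ± 0.15, Dhx58, its regulator LGP2, had -0.17 ± 0.20, and Eif2ak2, the RNA-activated kinase PKR, had 0.09 ± 0.16 (log2 fold change, SE). Their groups all overlapped.

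The other antiviral effectors, 5 genes, were all above 0 and none passed. Bst2, or tetherin, which holds budding virus at the cell surface, stood at 76.8, 82.2 and 94.5 CPM in HFCF and 109, 115 and 97.4 CPM in OP (replicates 1, 2 and 3), without overlap. Its log2 fold change was 0.34 ± 0.14 (SE; edgeR adjusted p = 0.182). Per kilobase of exon, Bst2 was the highest of the 47 genes in HFCF at 93.6 CPM per kilobase and Oas3 the lowest at 0.18. Ly6e, a surface protein, stood at 65.2, 87.1 and 65.2 CPM in HFCF and 107, 107 and 34.8 CPM in OP, so OP replicate 3 was the lowest library and the other 2 OP libraries were the highest. Rsad2, or viperin, which makes a chain-terminating nucleotide, had a log2 fold change of 0.07 ± 0.27 (SE). Cmpk2, a nucleotide kinase encoded beside Rsad2, had 0.15 ± 0.29, and Samd9l, a restrictor of translation, had 0.21 ± 0.21 (log2 fold change, SE).

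In the group of other induced genes, 0 of 7 passed and 6 were above 0 (Xaf1 was at -0.0179 with upper quartile scaling), with a median log2 fold change of 0.17. Ifi35 stood at 29.0, 27.2 and 26.2 CPM in HFCF and 36.5, 34.1 and 41.6 CPM in OP (replicates 1, 2 and 3). The groups did not overlap, and the log2 fold change was 0.45 ± 0.13 (SE; edgeR adjusted p = 0.0833). Lgals3bp, a secreted glycoprotein, had 0.37 ± 0.18, and Ifi27, a small mitochondrial protein, had 0.26 ± 0.19 (log2 fold change, SE). Ifi27l2a had 0.17 ± 0.32, Rtp4 0.17 ± 0.15, Xaf1 0.02 ± 0.21 and Ifi44 -0.24 ± 0.37 (log2 fold change, SE). All but Ifi35 had overlapping groups.

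The libraries of a group differed in how they stood across the set. HFCF replicate 3 was the lowest library for 20 of the 47 genes (42.6%, against 15.1% of all tested genes) and the highest for 0. OP replicate 3 was the highest for 15 (31.9%, against 19% of all tested genes) and OP replicate 1 for 13 (27.7%, against 15.5%). Within the interferon-gamma targets OP replicate 1 was the highest library for 6 of 8 (75%, against 15.5% of all tested genes). Their median log2 deviation from the mean over the 6 libraries was 0.53 in OP replicate 1, 0.06 in OP replicate 2 and 0.26 in OP replicate 3. The 3 HFCF libraries lay between -0.28 and -0.25 on the same measure. For the 38 type I targets the widest deviations were -0.26 in HFCF replicate 3 and 0.17 in OP replicate 3, and the other 4 libraries lay between -0.01 and 0.10. Without HFCF replicate 3 the median log2 fold change of the type I targets was 0.09, and without OP replicate 3 it was 0.08.

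**Figure D5:**
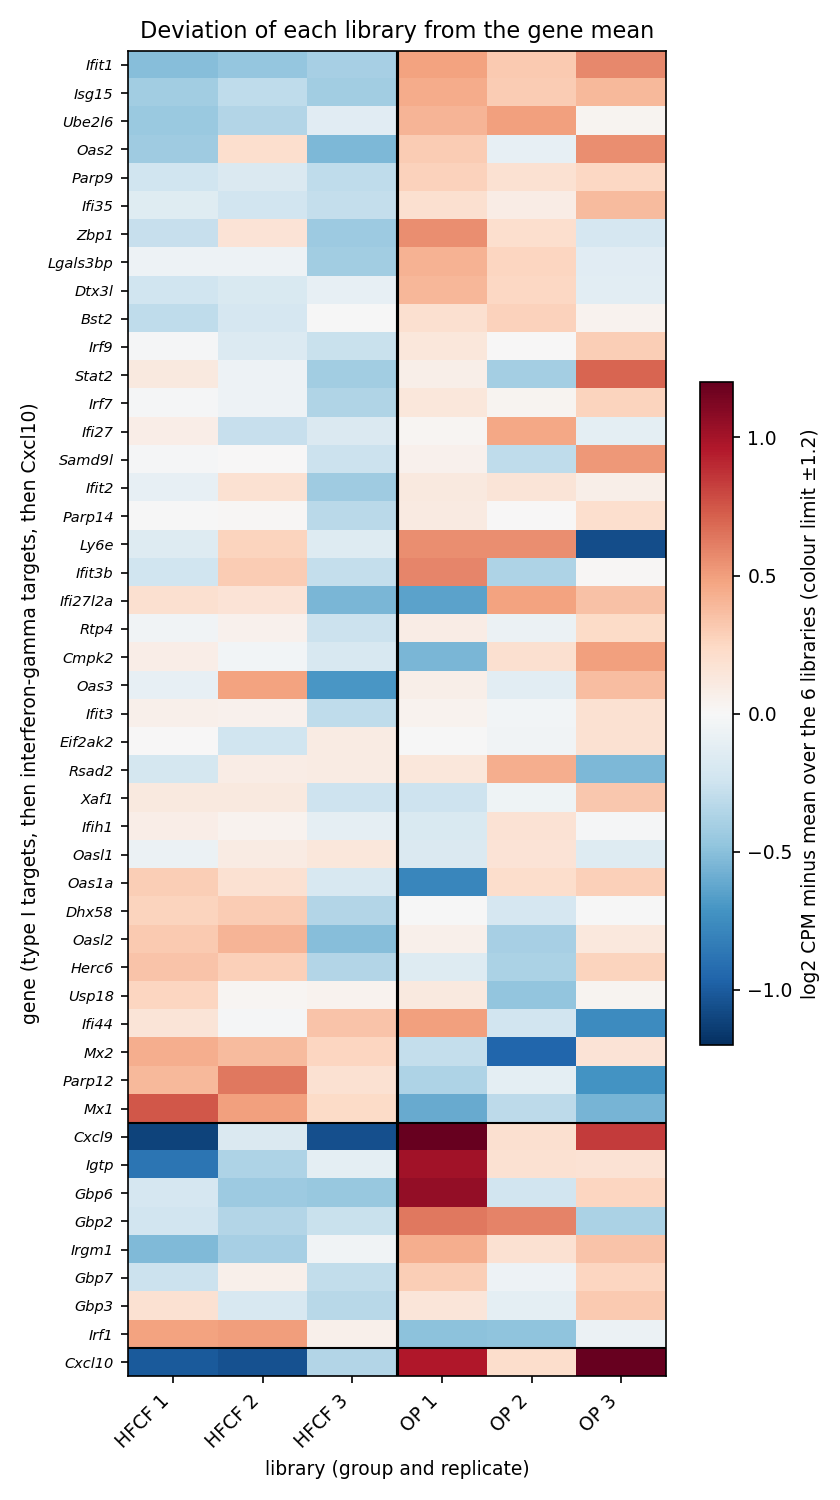
Log2 CPM of each of the 47 genes in each library, as the difference from that gene's mean over the 6 libraries (red above, blue below; the colour scale ends at 1.2 in either direction, so wider deviations share the end colours). Isg15, Ifit1, Cxcl9 and Cxcl10 are blue in all 3 HFCF libraries and red in all 3 OP libraries, and Mx1 and Parp12 show the reverse. Of the 38 type I targets, 17 (44.7%, against 15.1% of all tested genes) are lowest in HFCF replicate 3.

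Outside the set, the interferons themselves were at or near the limit of detection. Of 21 interferon ligand genes, 3 had any count and 0 passed the filter. Ifnb1 had 0 counts in all 6 libraries, which allows up to 0.0625 CPM in the library with the lowest scaled total. That limit takes counts as independent reads, and would be higher if a read pair is worth several counts. Ifng, the gene of interferon-gamma, had 14, 6 and 0 counts in HFCF and 40, 0 and 8 counts in OP (replicates 1, 2 and 3), and was not tested. Within OP, replicate 1 had the highest count of Ifng and the highest level of 6 of the 8 interferon-gamma targets. Within HFCF, replicate 1 had the highest count of Ifng. It had the lowest levels of Cxcl9, Igtp and Irgm1, the highest of Gbp2, Gbp3 and Gbp6, and levels in between for Irf1 and Gbp7. A link between the Ifng counts and these levels was not tested.

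Of 6 interferon receptor genes 0 passed, and the 4 subunits for type I interferon and interferon-gamma had log2 fold changes of 0.03 (Ifnar1), 0.15 (Ifnar2), 0.35 (Ifngr1) and 0.19 (Ifngr2). The kinase gene Jak1 had -0.04, and of 8 inhibitors of the pathway 0 passed.

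Upstream, 18 of 19 genes of nucleic acid sensing were tested, of which 0 rose and 2 fell (11.1%, against 3.47% of all tested genes). Tbk1, the kinase that activates IRF3, stood at 27.4, 28.2 and 24.6 CPM in HFCF and 12.8, 13.8 and 16.8 CPM in OP (replicates 1, 2 and 3), and fell by 0.89 ± 0.15 on the log2 scale (SE; edgeR adjusted p = 0.0168). Tlr3, the endosomal receptor for double-stranded RNA, stood at 10.4, 10.4 and 7.15 CPM in HFCF and 5.45, 3.95 and 5.35 CPM in OP, and fell by 0.92 ± 0.23 on the log2 scale (SE; edgeR adjusted p = 0.0493). Neither gene's groups overlapped. Tbk1 lost its call when HFCF replicate 1 or 2 or OP replicate 1 was left out, and Tlr3 without any library except HFCF replicate 3.

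Other type I targets, 41 genes that are not in the set, had 4 that rose and 2 that fell. These are 9.76% and 4.88%, against 3.26% and 3.47% of all tested genes. The median log2 fold change of the 41 was -0.05. At an unadjusted p under 0.05 in edgeR's test, 5 were higher and 11 lower (12.2% and 26.8%, against 13% and 12.2%). All 3 OP libraries lay above all 3 HFCF libraries for 5 (12.2%, against 15.8%) and below them for 10 (24.4%, against 15.4%). Ifitm3, which blocks virus entry at the endosome, rose by 0.70 ± 0.14, Ifi27l2b, a relative of Ifi27, by 1.47 ± 0.27, and Apol9a and Apol9b, close copies of each other, by 0.65 ± 0.15 and 0.60 ± 0.13 (log2 fold change, SE). Their edgeR adjusted p values were 0.0286 for Ifitm3, 0.0206 for Ifi27l2b, 0.041 for Apol9a and 0.0375 for Apol9b. Trim14, an adaptor of antiviral signalling, fell by 1.16 ± 0.24 on the log2 scale (SE; edgeR adjusted p = 0.029). With 1 library left out, Apol9b lost its call in all 6 fits, Ifitm3 in all but that without OP replicate 3 and Apol9a in all but that without OP replicate 2. Trim14 lost it without any HFCF library or OP replicate 1, and Ifi27l2b without HFCF replicate 1 or 2 or OP replicate 1. Trafd1, a negative regulator of innate signalling, stood at 111, 104 and 97.2 CPM in HFCF and 48.9, 43.5 and 49.7 CPM in OP (replicates 1, 2 and 3), and fell by 1.14 ± 0.13 on the log2 scale (SE; edgeR adjusted p = 0.00491). It passed in all 6 fits that left out 1 library, and none of the 47 genes did.

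Other interferon-gamma targets, of which 30 of 31 were tested, had 1 that rose and 1 that fell. These are 3.33% each, against 3.26% and 3.47% of all tested genes. The median log2 fold change of the 30 was 0.27. At an unadjusted p under 0.05 in edgeR's test, 7 were higher and 2 lower (23.3% and 6.67%, against 13% and 12.2%). All 3 OP libraries lay above all 3 HFCF libraries for 10 (33.3%, against 15.8%) and below them for 2 (6.67%, against 15.4%). Psmb10, a subunit of the immunoproteasome, stood at 20.9, 21.9 and 20.1 CPM in HFCF and 38.1, 34.8 and 40.9 CPM in OP (replicates 1, 2 and 3), and rose by 0.86 ± 0.13 (log2 fold change, SE; edgeR adjusted p = 0.0119). Nlrc5, the activator of MHC class I genes, stood at 61.5, 70.7 and 59.6 CPM in HFCF and 39.5, 25.1 and 40.2 CPM in OP, and fell by 0.87 ± 0.20 on the log2 scale (SE; edgeR adjusted p = 0.039). Both held apart without overlap. Both calls were lost when HFCF replicate 1 or 2 or OP replicate 1 was left out, and that of Nlrc5 also without HFCF replicate 3 or OP replicate 2.

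The libraries held 46459980 to 61918541 counts. All 8 hepatocyte markers passed the filter, with a summed level of 38290 to 60902 CPM in HFCF and 59446 to 87220 CPM in OP. Of these 8, Ttr (transthyretin) rose by 1.13 ± 0.20 (log2 fold change, SE; edgeR adjusted p = 0.019) and Cyp3a11 (a drug-metabolising cytochrome) fell by 0.79 ± 0.17 on the log2 scale (SE; edgeR adjusted p = 0.0336). The test called 0 of 14 macrophage and Kupffer cell markers (387 to 471 CPM in HFCF, 259 to 426 CPM in OP), 0 of 16 T and NK cell markers (13.1 to 17.2 and 10.9 to 14.2 CPM) and 0 of 8 dendritic cell markers (15.6 to 22.3 and 17.3 to 26.5 CPM). Of the T and NK cell markers, Ncr1 and Prf1 had 0 counts in OP replicates 1 and 3, Cd8a in OP replicate 3 and Klrb1c in OP replicate 2. For neutrophils, 0 of the 4 markers tested of 6 passed (7.50 to 13.1 and 4.14 to 7.49 CPM), with Ly6g and Mpo at 0 counts in 5 libraries each and Retnlg at 0 counts in OP replicates 1 and 2. For endothelial cells 0 of 8 markers passed (188 to 311 and 176 to 244 CPM). B and plasma cell markers (0 of 6 passed) summed to 28.1 to 52.5 CPM in HFCF and 15.6 to 155 CPM in OP, the highest value being that of OP replicate 2. The part of these differences in the values of the 47 genes was not tested.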

How the data were processed

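Polyadenylated RNA from liver was sequenced as paired-end, dUTP-marked libraries, per the labels' protocols. Cutadapt 1.9 and FastQC, and the build GRCm39, are named in the submitters' processing notes, and no aligner, counting tool or strand setting is given in the sources used here. Whole-number counts per gene for all 6 libraries were deposited by the authors in 1 table, with totals of 46459980 to 61918541. In each library more genes had 4 counts than 3 or 5, so a read pair may be worth several counts. The detection floor of 3 counts covers counting error only.

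Samples were grouped by title. Symbols were matched by Ensembl identifier (55141 of 55401). Genes were kept by filterByExpr (17394 of 27893 with any count), scaled by TMM and tested two-sided with edgeR 4.0.16 (glmQLFit, glmQLFTest; R 4.3.3). P-values were adjusted by Benjamini-Hochberg over the whole tested table and called at 0.05. A standard error is the absolute log2 value over the root of F. No pair of replicates agreed within sampling noise by a chi-square statistic of their counts. The procedure was checked on simulated counts. The 47 genes, their classes and the pathway and marker lists were chosen with earlier results of these data known, so no p-value was computed over a list. All 47 may be named, and other genes were named where a pathway list member passed or where they are Jak1, a subunit of the main receptors, Ifnb1 or Ifng. Gm43302, Gm17334, Oas1g and Art3 were named after their values were seen, because they share exon bases or sequence with a member. Cxcl11, Parp10, Parp11 and the Gbp genes outside the set were also named after their values were seen, as relatives of members. Cell markers at 0 counts or past the threshold are named as well. The list of kinases and transcription factors of the pathway is not reported here. Alternatives were DESeq2 1.42.0, limma-voom (limma 3.58.1), other scalings, filters and thresholds, counts divided by 4, mitochondrial genes left out, the mitochondrial share as a covariate, a replicate block and each library left out. Promoters are RefSeq's on GRCm38.p6, and exon overlaps, lengths and shared 100-base stretches are from GENCODE M21 on GRCm38, used for no coordinates of the counts.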

Additional observations from a re-analysis of the deposited data

How the results depend on the processing

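The direction of Isg15, Ifit1, Cxcl9, Cxcl10, Mx1 and Parp12 was the same under all 19 alternatives, but their calls were not. The thresholds of 0.01 and 0.1 are among the 19 and use the main fit, so direction could not differ there. With all 6 libraries, 567 genes of all tested were higher and 603 lower, and 4 and 2 of the 47. DESeq2 called 1252 and 1262 of all tested genes (16.4% in either direction) and 8 higher and 3 lower members. Without a filter on low counts 298 and 400 genes were called (2.5%), with 3 higher members and 1 lower member. Total counts without scaling factors also gave 1 lower member, beside 4 higher (5.48% of all tested genes called). A filter of at least 1 CPM in 3 libraries and counts divided by 4 each gave 7 higher and 3 lower members. Those fits called 11.5% and 11.1% of all tested genes, against 6.73% in the main fit. At an adjusted p under 0.01, 72 and 92 of all genes and 0 members in either direction passed edgeR's test. At an unadjusted p under 0.05 in that test, 11 members were higher and 4 lower. At an adjusted p under 0.1, 1322 and 1230 genes (14.7%) and 9 higher and 3 lower members passed edgeR's test. With the mitochondrial mRNA share as a covariate, 110 and 97 genes and 0 members passed in edgeR, and the median log2 fold change was 0.35 for type I and 0.46 for interferon-gamma targets. With 1 library left out, 34 to 655 genes were called higher and 54 to 655 lower, 0 to 4 members higher and 0 to 3 lower, and the medians ran from 0.08 to 0.23 for type I and from 0.44 to 0.77 for interferon-gamma targets. The cause of these shifts was not tested.

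The replicate numbers did not pair the libraries: the deviations of same-numbered libraries correlated at 0.02, -0.13 and -0.16 across genes, which are not independent replicates. With a replicate block, 87 genes were called higher and 93 lower, and 0 members in either direction.

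Some genes that had not passed changed direction, most of them near 0 but Gbp2 from 0.65. Upper quartile scaling gave log2 fold changes of -0.0179 for Xaf1 and -0.00915 for Ifnar1, and the filter of 1 CPM gave -0.0014 for Xaf1. With the mitochondrial covariate, values turned for Ifih1 (0.0428), Dhx58 (0.26), Oas1a (0.35), Oasl2 (0.52), Rsad2 (-0.68), Usp18 (0.0706), Gbp2 (-0.025), Herc6 (0.54), Ly6e (-0.997), Ifnar2 (-0.0825), Ifngr2 (-0.16) and Jak1 (0.20). With 1 library left out, both signs occurred for Ifih1 (-0.10 to 0.0776), Rsad2 (-0.15 to 0.30), Ifnar1 (-0.11 to 0.10), Eif2ak2 (-0.0359 to 0.16), Ifi27l2a (-0.0358 to 0.45), Oas3 (-0.11 to 0.47), Xaf1 (-0.15 to 0.15), Ifit3b (-0.12 to 0.38), Oas1a (-0.31 to 0.14), Ly6e (-0.0353 to 0.56), Jak1 (-0.11 to 0.0199), Ifi44 (-0.65 to 0.00861), Stat2 (-0.0432 to 0.52), Cmpk2 (-0.0862 to 0.40) and Samd9l (-0.029 to 0.39). None of these genes had passed.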
